A study of Setaria italica with 18 samples.

Results

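The genes described here encode small hydrophobic membrane proteins of the LT101/LTI6 type. They were chosen from the deposited annotation, as every gene of foxtail millet (Setaria italica) whose description named low temperature-induced protein lt101 or the hydrophobic proteins LTI6, RCI2 or OSR8. This gave 8 of the 29108 genes in the expression table. The description was lt101.2 for 2 members, LTI6A for 1, LTI6B for 3 and OSR8 for 2, and RCI2 occurred in 0 descriptions. Leaves of JK3, a salt-tolerant variety, and of B175, a salt-sensitive one, were compared by RNA sequencing at 0, 12 and 24 h of saline-alkali stress. The groups J0, J12 and J24 of JK3 and B0, B12 and B24 of B175 had 3 libraries each, which the study's methods call biological replicates, 18 in all. The stress was 75% artificial seawater given to seedlings, and 0 h was its start. Plants kept in distilled water for 12 or 24 h were not analysed here, and the growth chamber had 12 h of light and 12 h of darkness, so at 12 h the stress and the time of day cannot be told apart. At 12 and 24 h alike, the stress also cannot be told apart from the time that had passed since 0 h.

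Proteins of this family are very short and consist largely of a pair of membrane-spanning stretches joined by a loop. The yeast member PMP3 sits in the plasma membrane, and yeast cells without it have a more negative membrane potential and become sensitive to sodium. In Arabidopsis the RCI2 genes are induced by cold, dehydration, salt and abscisic acid, and plants lacking RCI2A take up more sodium under salt. The names of the millet genes come from relatives in other grasses: lt101 from barley, where it was found as a cold-induced transcript, and LTI6A, LTI6B and OSR8 from rice.

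The values are FPKM, fragments scaled to the length of the gene and to the total of the library, so levels of different genes can be compared per length. The fragments behind each value were recovered from the steps between values, and the libraries held 34738653 to 38799091 fragments. Correlations of log2(FPKM + 1) across genes between libraries of a group ranged from 0.954 to 0.991, and the lowest involved B24 replicate 2. That library also stood apart in the leaf markers (small subunit of Rubisco, C4 enzymes and chlorophyll a-b binding proteins, 32 genes), with a summed level of 43031 FPKM against 20553 and 23209 FPKM in the other B24 libraries. Leaf markers were present in every library, at 5132 to 57920 FPKM in sum, and the 3 Casparian strip genes of root endodermis reached 1.18 FPKM in sum at most. At 12 h the summed level of the leaf markers was low. It was 5132 to 5732 FPKM in J12 against 30448 to 33305 FPKM in J0, and 7976 to 11282 FPKM in B12 against 47530 to 57920 FPKM in B0. Of 31 leaf markers tested, 5 were called higher and 22 lower in J12 vs J0, by the limits given below. In B12 vs B0, 4 were called higher and 22 lower. Over all genes, 24% were called higher and 7.67% lower in J12 vs J0, and 28.0% and 9.81% in B12 vs B0. At 12 h, 12.8% to 13.7% of all fragments fell on the 100 most abundant genes, against 22.3% to 29.3% at 0 h. Over the 23824 genes tested, the median log2 fold change was 0.37 in J12 vs J0 and 0.43 in B12 vs B0. Scaling the libraries by the median ratio brought these medians close to 0, so the scaled change is given beside the 12 h results. Fewer cells of a type and less RNA per cell cannot be told apart in these bulk leaf samples.

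All 8 members encode between 54 and 76 residues, by the coding length that the FPKM imply. The lt101.2 genes Seita.9G443500 (Seita.9G443500.v2.2 in full, as all identifiers here end) and Seita.3G045600, on chromosomes 9 and 3, have a coding length of 165 bases or 54 residues. LTI6A is Seita.2G404700 on chromosome 2, with 171 bases or 56 residues. Of the LTI6B genes, Seita.3G055400 on chromosome 3 and Seita.5G033400 on chromosome 5 have 171 bases, and Seita.5G033500, whose identifier follows directly on chromosome 5, has 174 bases or 57 residues. The OSR8 genes are longer, with 219 bases in Seita.2G305300 on chromosome 2 and 231 bases in Seita.4G194900 on chromosome 4. The annotation gives every member as an integral component of membrane, and gives Seita.2G404700 also the responses to abscisic acid, cold, salt stress and water deprivation. Every member passed the filter of a mean FPKM of at least 0.1.

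The family was abundant in leaves and its summed level was higher under stress in both varieties. The sum over the 8 members averaged 4567 ± 648 FPKM in J0, 9881 ± 1231 FPKM in J12 and 11962 ± 2173 FPKM in J24 (SD, n = 3 each). In B175 it averaged 3409 ± 639 FPKM in B0, 11116 ± 1770 FPKM in B12 and 14017 ± 3940 FPKM in B24. Most of the sum at 24 h came from a single gene, Seita.9G443500, which made up 52.4% to 64.1% of it in J24 against 31.3% to 38.1% in J0. In B175 its share was 65.2% to 77.3% in B24 against 25.4% to 38.0% in B0. The share of the LTI6B gene Seita.5G033400 was 6.52% to 9.44% in J24 against 20.3% to 20.9% in J0, and 4.54% to 6.64% in B24 against 24.3% to 41.7% in B0. These sums describe the family and were not tested.

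**Figure D1:**
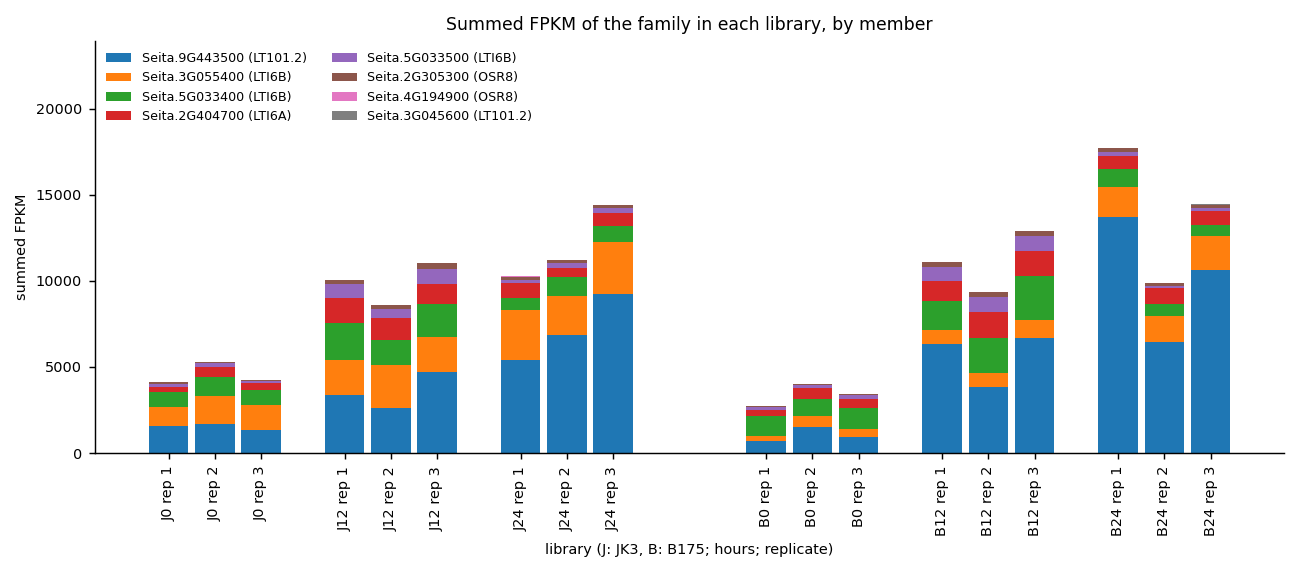
Summed FPKM of the 8 members in each library (bars, linear axis from 0, colours for members), with JK3 (J) left of B175 (B) and hours rising within a variety. The blue share, Seita.9G443500, grows to 52.4% to 64.1% of the bar in J24 and 65.2% to 77.3% in B24, and the bar of B24 replicate 2 is the lowest of its group at 9886 FPKM.

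Members were called with a log2 fold change past 1 or -1 and an adjusted p under 0.05 (limma on log2(FPKM + 1), Benjamini-Hochberg adjustment over the 23824 genes). In J12 vs J0, 5 of the 8 members were called, 4 higher and 1 lower, where 31.6% of all genes were called. In B12 vs B0, 6 members were called, 5 higher and 1 lower, against 37.8% of all genes. With median-ratio scaling 4 members, 3 higher and 1 lower, were called in each of these comparisons, where 25% of all genes were called in J12 vs J0 and 31.3% in B12 vs B0. At 24 h against 0 h, 2 members were called in J24, both higher, where 7.42% of all genes were called, and 4 in B24, all higher, against 16.2% of all genes. Seita.3G045600 had no fragment at 0 h and passed the filter through stressed libraries only, so its calls follow from that selection and are a description. Of the other 7 members, 5 were called in B12 vs B0, 4 of them higher, and 3 in B24 vs B0, and their median log2 fold changes were 1.19 in J12, 1.46 in B12, 0.80 in J24 and 0.75 in B24 against 0 h. Of all genes, 24% were called higher in J12 and 28.0% in B12, against 5.36% in J24 and 10.2% in B24. The median log2 fold change of the members was 1.07 in J12 vs J0, where that of all genes was 0.37, and 1.39 in B12 vs B0, where that of all genes was 0.43. After scaling the members' medians were 0.50 and 0.96, and those of all genes 0.01 in both. It was 0.89 in J24 vs J0 and 1.02 in B24 vs B0, where the medians of all genes were 0.03 and 0.08. The unscaled values of the 3 stressed and the 3 unstressed libraries did not overlap for 7 members in J12 and 8 in B12 (60.1% and 68.8% of all genes), nor for 5 in J24 and 6 in B24 (35.4% and 39.6% of all genes). Without Seita.3G045600 these counts were 7 in J12, 7 in B12, 4 in J24 and 5 in B24.

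**Figure D2:**
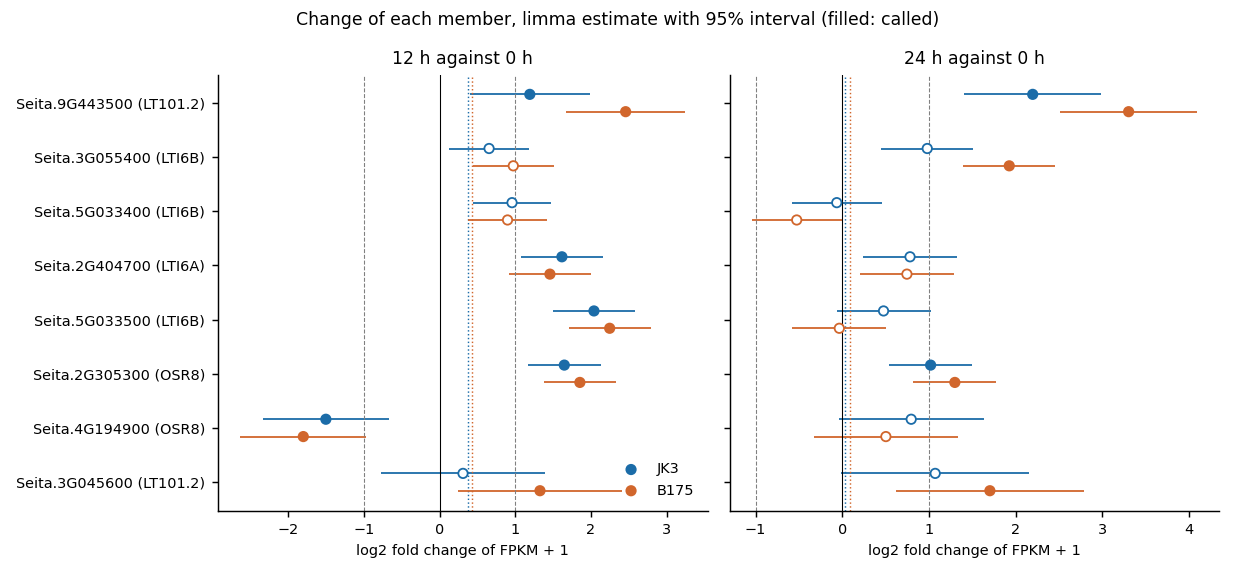
Log2 fold change of FPKM + 1 for each member at 12 h (left) and 24 h (right) against 0 h, in JK3 (blue, upper) and B175 (orange, lower), with 95% intervals from limma; filled points were called (those of Seita.3G045600, at 0 in every 0 h library, are a description), grey dashed lines mark 1 and -1, and dotted lines mark the median of all genes. Seita.9G443500 moved furthest at 24 h, by 2.2 in JK3 and 3.30 in B175, and Seita.4G194900 lies left of 0 at 12 h, at -1.51 and -1.80.

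The lt101.2 gene Seita.9G443500 was the most abundant member on average. In JK3 it had 1569, 1676 and 1336 FPKM at 0 h, 3397, 2627 and 4698 FPKM at 12 h, and 5375, 6834 and 9241 FPKM at 24 h. In B175 it had 699.5, 1531 and 907.7 FPKM at 0 h, 6324, 3846 and 6666 FPKM at 12 h, and 13703, 6450.5 and 10639 FPKM at 24 h. In both varieties each stressed library was above each unstressed one, and the J12 and J24 libraries did not overlap, whereas B24 replicate 2 lay inside the range of B12. In the order of FPKM over all genes of a library it stood at places 4 to 8 in J24 against 46 to 69 in J0, and at places 2 to 7 in B24 against 74 to 149 in B0. Measured as reads, it took 30808 to 59105 fragments in J24 against 8435 to 10602 in J0, and 38790 to 82090 in B24 against 4401 to 9395 in B0. FPKM divides by length, and this coding sequence is short, so its place by FPKM is not its share of the reads, which was 0.0887% to 0.152% of the library in J24 and 0.106% to 0.226% in B24.

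At 24 h Seita.9G443500 rose in both varieties, with a mean 4.68-fold higher in J24 than in J0 (log2 fold change 2.2, SE 0.37, limma adjusted p 0.0022). In B24 it was 9.81-fold higher than in B0 (log2 fold change 3.30, SE 0.37, limma adjusted p 1e-05). Both calls held in each of the alternatives tried, with adjusted p values up to 0.0219 in JK3 and 0.00989 in B175. At 12 h the gene rose in B175, with a mean 5.36-fold higher in B12 than in B0 (log2 fold change 2.46, limma adjusted p 3.01e-05; 1.80 after median-ratio scaling). The 12 h call in JK3 was less stable, with a log2 fold change of 1.19 (limma adjusted p 0.0129) that was 0.62 after median-ratio scaling (limma adjusted p 0.198) and 0.97 without J12 replicate 3 (limma adjusted p 0.0635).

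Between 12 and 24 h the level of Seita.9G443500 went further up on average. In J24 vs J12 the log2 fold change was 1.01 (limma adjusted p 0.0348), a call lost without J12 replicate 1 (0.99), without J12 replicate 2 (0.80), without J24 replicate 2 (1.02, limma adjusted p 0.0699) or without J24 replicate 3 (0.80), with quantile normalization (0.82), with no filter (limma adjusted p 0.0798) and in a fit of these groups alone (limma adjusted p 0.0713). In B24 vs B12 the log2 fold change was 0.85 (limma adjusted p 0.0706) and was called at 1.15 without B24 replicate 2 (limma adjusted p 0.0201). Median-ratio scaling gave called changes of 1.51 in JK3 and 1.32 in B175. With scaling a smaller part of the rise fell in the first 12 h and a larger part in the second than without it.

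The varieties were not called different in Seita.9G443500 at any time. The log2 fold change was 0.62 in J0 vs B0 (95% interval -0.17 to 1.41), -0.65 in J12 vs B12 (-1.44 to 0.14) and -0.49 in J24 vs B24 (-1.28 to 0.30), and the libraries of the varieties overlapped at each time. The change from 0 to 12 h in JK3 minus that in B175 was -1.27 (95% interval -2.39 to -0.15, limma p 0.0288, adjusted p 0.182). For 24 h this difference was -1.11 (95% interval -2.23 to 0.01, limma p 0.052, adjusted p 0.324). The difference of the responses did not pass the adjustment at either time, and the intervals reach from a much smaller response in JK3 to a nearly equal one.

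**Figure D3:**
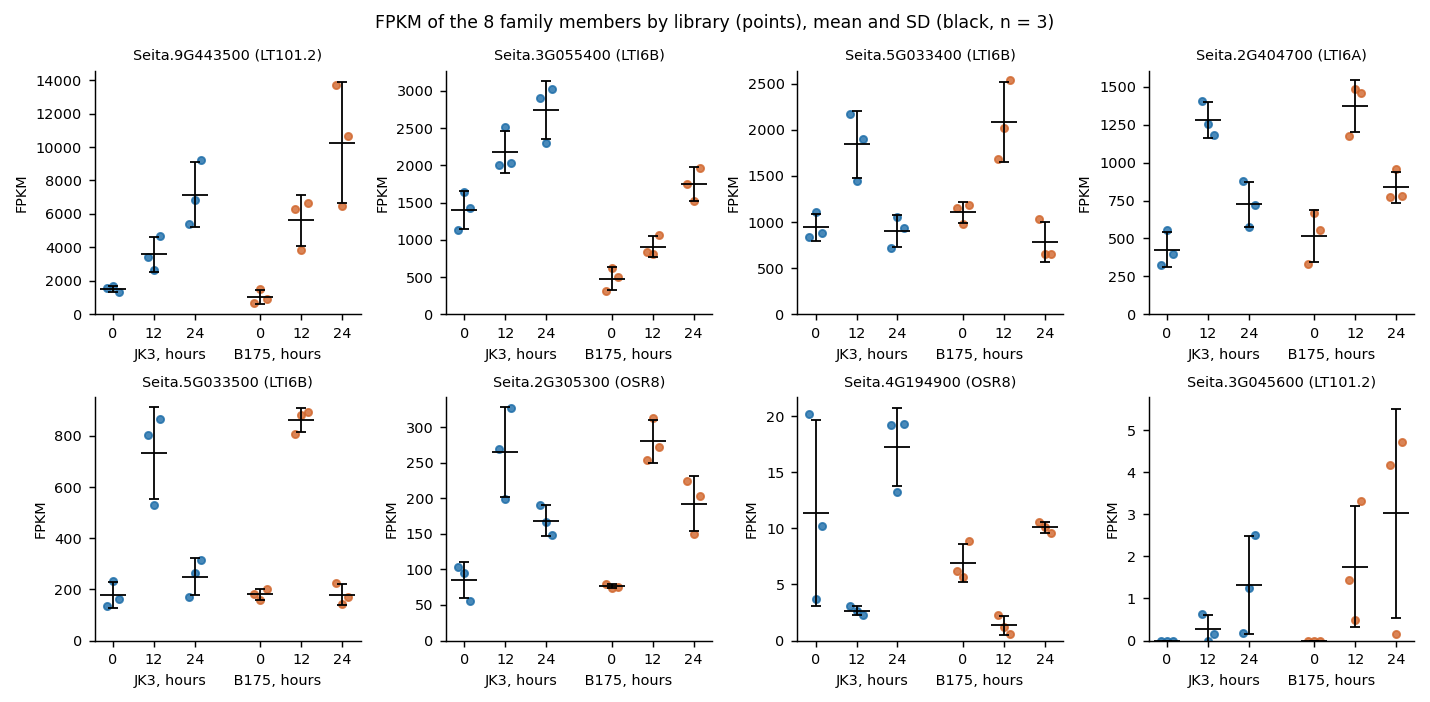
FPKM of each member in the 18 libraries (points; linear axes from 0 that differ between panels) by hours of stress in JK3 (blue, left) and B175 (orange, right), with the mean and SD of 3 libraries in black. Seita.9G443500 and Seita.3G055400 have their highest mean at 24 h, the chromosome 5 genes, Seita.2G404700 and Seita.2G305300 at 12 h, and Seita.4G194900 its lowest at 12 h.

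The LTI6B gene Seita.3G055400 was the member that differed between the varieties. In JK3 it had 1128, 1636 and 1425 FPKM at 0 h, 2009, 2509 and 2031 FPKM at 12 h, and 2907, 2301 and 3023 FPKM at 24 h. The B175 libraries had 308.0, 617.4 and 500.6 FPKM at 0 h, 830.4, 814.8 and 1069 FPKM at 12 h, and 1754, 1521 and 1970.2 FPKM at 24 h. At each time the lowest JK3 library was above the highest B175 library, and unstressed JK3 overlapped the range of B175 after 24 h. In J0 the mean was 2.94-fold that of B0 (log2 fold change 1.59, SE 0.25, limma adjusted p 0.000292), and this was the 1 member called in J0 vs B0, where 12.8% of all genes were called, 6.78% higher. The difference was between 1.31 and 1.81 with each library left out, and 1.47 after scaling.

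At 12 h Seita.3G055400 was 2.41-fold higher in J12 than in B12 (log2 fold change 1.27, limma adjusted p 0.00345), again the 1 member called, where 6.35% of all genes were called, 3.97% higher. At 24 h the difference in J24 vs B24 was 0.65 (95% interval 0.11 to 1.18, limma adjusted p 0.137), and 0 members were called by limma there, where 4.55% of all genes were called. At an unadjusted p under 0.05 this gene was the 1 member found in J24 vs B24, where 22.1% of all genes were found, and limma voom on the recovered fragments also called 0. Values did not overlap between the varieties for 1 member at 0 h, 1 at 12 h and 2 at 24 h (41.8%, 33.6% and 23.5% of all genes), and the second gene at 24 h was Seita.4G194900.

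Within B175, Seita.3G055400 rose by 24 h to a mean 3.68-fold that of B0 (log2 fold change 1.93, SE 0.25, limma adjusted p 3.96e-05). In J24 vs J0 the log2 fold change was 0.98 (limma adjusted p 0.0161), just short of the limit of 1, and it was called without J0 replicate 2 (1.10), J0 replicate 3 (1.003) or J24 replicate 2 (1.10). The 24 h change in JK3 minus that in B175 was -0.95 (95% interval -1.70 to -0.19, limma p 0.0171, adjusted p 0.192). At 12 h against 0 h the changes were 0.65 in JK3 and 0.97 in B175, neither called, and after scaling they were 0.08 and 0.32. In B12 vs B0 leaving out B0 replicate 2 (1.19), B0 replicate 3 (1.04), B12 replicate 1 (1.03) or B12 replicate 2 (1.04) gave a call. In B24 vs B12 the change was 0.95, and it was called after scaling (1.42), without B12 replicate 3 (1.08) and without B24 replicate 2 (1.05). For the difference of the responses between varieties, 0 of the 8 members were called by limma at 12 h and 0 at 24 h (5.87% and 2.52% of all genes). At an unadjusted p under 0.05 there was 1 member at each time, Seita.9G443500 at 12 h and Seita.3G055400 at 24 h, where 20.2% and 15.7% of all genes passed that limit, and limma voom called 0 at both.

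LTI6A, Seita.2G404700, had its highest mean FPKM at 12 h. In JK3 it had 326.8, 552.9 and 398.0 FPKM at 0 h, 1408, 1253 and 1180.2 FPKM at 12 h, and 878.1, 578.8 and 720.9 FPKM at 24 h. In B175 it had 331.0, 666.4 and 554.1 FPKM at 0 h, 1174, 1485 and 1459.7 FPKM at 12 h, and 775.7, 956.2 and 778.8 FPKM at 24 h. Without scaling the 12 h libraries were above all others of their variety, and the 2 varieties overlapped at every time. After median-ratio scaling B24 replicate 2 (1123 FPKM) was above B12 replicate 1 (925 FPKM). Likewise J24 replicate 1 (984 FPKM) was above J12 replicate 2 (946 FPKM). From 12 to 24 h the log2 fold change was -0.83 in JK3 and -0.71 in B175, not called. Scaling gave -0.33 and -0.24, while quantile normalization gave called changes of -1.25 and -1.05. It rose in J12 to a mean 3.01-fold that of J0 (log2 fold change 1.62, SE 0.26, limma adjusted p 6.06e-05; 1.05 and still called after scaling). In B12 vs B0 the log2 fold change was 1.46 (limma adjusted p 0.000124), and after scaling it was 0.80 and no longer called. At 24 h against 0 h the values were 0.78 in JK3 and 0.75 in B175, under the limit.

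The LTI6B genes Seita.5G033400 and Seita.5G033500 carry consecutive identifiers and had a similar time course, highest at 12 h. Seita.5G033400 had, in JK3, 838.1, 1112 and 879.2 FPKM at 0 h, 2171, 1449.8 and 1906 FPKM at 12 h, and 720.7, 1059 and 940.1 FPKM at 24 h. B175 had 1150.3, 979.2 and 1187 FPKM at 0 h, 1681, 2023 and 2544 FPKM at 12 h, and 1038, 656.8 and 655.9 FPKM at 24 h. Without scaling, every 12 h library was above every other library of its variety. This separation was lost after median-ratio scaling. Scaled values were 1325 FPKM in B12 replicate 1 against 1442 FPKM in B0 replicate 3, and 1094 FPKM in J12 replicate 2 against 1248 FPKM in J0 replicate 2. At 0 h this gene was the most abundant member in B0 by mean, at 1106 ± 111 FPKM against 1046 ± 433 FPKM for Seita.9G443500, values that overlap. The 12 h changes of Seita.5G033400 were 0.96 in JK3 and 0.90 in B175, under the limit. Scaling gave 0.39 and 0.24, not called, while quantile normalization gave called changes of 1.41 and 1.42. Without J0 replicate 2 (1.08), J12 replicate 2 (1.12) or, in B175, B12 replicate 1 (1.04) the change was also called.

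Seita.5G033500 had, in JK3, 136.8, 234.6 and 162.9 FPKM at 0 h, 802.7, 529.4 and 867.8 FPKM at 12 h, and 170.2, 263.3 and 315.2 FPKM at 24 h. In B175 it had 181.2, 158.7 and 203.3 FPKM at 0 h, 806.3, 883.3 and 891.8 FPKM at 12 h, and 224.1, 141.6 and 171.3 FPKM at 24 h. The 12 h libraries stood clear of the others, and 0 h and 24 h overlapped in both varieties. The gene rose 4.12-fold in J12 over J0 (log2 fold change 2.04, SE 0.26, limma adjusted p 5.88e-06) and 4.75-fold in B12 over B0 (2.25, SE 0.26, limma adjusted p 1.48e-06). Both calls held after scaling, at 1.47 and 1.59. It then fell, with log2 fold changes of -1.56 in J24 vs J12 and -2.28 in B24 vs B12 (limma adjusted p 0.000106 and 2.24e-06), both also called after scaling. For J24 vs J0 and B24 vs B0 the log2 fold changes were 0.48 (95% interval -0.07 to 1.02) and -0.03 (-0.58 to 0.51).

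The pair did not move in proportion. The FPKM of Seita.5G033500 divided by that of Seita.5G033400 was 0.163, 0.211 and 0.185 in J0, 0.370, 0.365 and 0.455 in J12, and 0.236, 0.249 and 0.335 in J24. In B175 it was 0.158, 0.162 and 0.171 in B0, 0.480, 0.437 and 0.351 in B12, and 0.216, 0.216 and 0.261 in B24. A ratio within a library does not depend on the scaling between libraries, and its values at 12 h were above those at 0 h without overlap in both varieties. The mean log2 ratio was higher by 1.22 at 12 h than at 0 h, with an exact two-sided permutation p of 0.005 over rearrangements within both varieties, and by 0.52 at 24 h than at 0 h (exact permutation p 0.005). That is the smallest p the 400 arrangements allow, it was 0.005 also after adjustment over the 2 tests, and in 1 variety alone 3 libraries against 3 cannot give less than 0.1. This ratio was examined after the values had been seen. Its p values do not allow for that choice and are a description. How the counting treated reads that match both genes is not given in the sources used here.

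**Figure D4:**
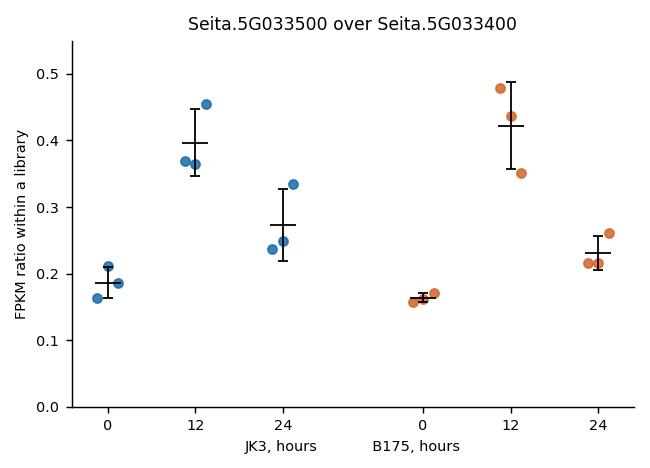
FPKM of Seita.5G033500 divided by that of Seita.5G033400 in each library (points; linear axis from 0), with the mean and SD of 3 libraries in black, by hours of stress in JK3 (blue, left) and B175 (orange, right). The 6 libraries at 12 h lie between 0.351 and 0.480, above the 6 at 0 h, which lie between 0.158 and 0.211.

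In the comparisons of 24 h with 12 h, 4 members were called in J24 vs J12 (2 higher and 2 lower, where 26% of all genes were called, 7.3% higher and 18.7% lower) and 3 in B24 vs B12 (1 higher and 2 lower, against 26.6%, 7.86% higher and 18.8% lower). The values of the 2 times did not overlap for 6 members in JK3 and 6 in B175 (61.3% and 54.1% of all genes). Seita.5G033400 and Seita.5G033500 were the genes that fell. The log2 fold change of Seita.5G033400 was -1.02 in JK3 and -1.42 in B175 (limma adjusted p 0.0026 and 0.000159), and after scaling -0.51 and -0.95, no longer called. In JK3 this call was also lost without J12 replicate 1 (-0.89), J12 replicate 3 (-0.99) or J24 replicate 1 (-0.86). The members that rose were Seita.4G194900 in both varieties and Seita.9G443500 in JK3. Without J12 replicate 1 the count in J24 vs J12 was 2, and without B24 replicate 2 that in B24 vs B12 was 6. The shares of all genes called in these 2 fits are not given here, so the counts are a description.

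The OSR8 gene Seita.2G305300 rose at both times. In JK3 it had 104.0, 95.3 and 56.1 FPKM at 0 h, 269.1, 199.6 and 326.8 FPKM at 12 h, and 191.3, 166.6 and 148.1 FPKM at 24 h. The libraries of B175 had 79.9, 74.4 and 75.03 FPKM at 0 h, 254.1, 313.0 and 272.5 FPKM at 12 h, and 223.9, 149.1 and 203.6 FPKM at 24 h. All stressed libraries were above the unstressed ones, and the varieties overlapped at each time. From 12 to 24 h the log2 fold change was -0.63 in JK3 and -0.56 in B175, not called, and -0.12 and -0.09 after scaling. At 12 h it was 3.12-fold higher in J12 than in J0 (log2 fold change 1.65, limma adjusted p 1.48e-05) and 3.66-fold higher in B12 than in B0 (1.85, limma adjusted p 3.07e-06), and both calls held after scaling, at 1.08 in JK3 and 1.202 in B175. At 24 h the change was 1.30 in B24 vs B0 (limma adjusted p 0.000433). In J24 vs J0 it was 1.02 (limma adjusted p 0.00769), a call lost after scaling (0.96), with quantile normalization (0.84), in a fit of these groups alone (limma adjusted p 0.0603), without J0 replicate 3 (0.75) and without J24 replicate 1 (0.92).

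The other OSR8 gene, Seita.4G194900, was far less abundant and ran the other way at 12 h. In JK3 it had 20.2, 3.73 and 10.2 FPKM at 0 h, 3.08, 2.68 and 2.27 FPKM at 12 h, and 19.2, 13.3 and 19.3 FPKM at 24 h. In B175 it had 6.24, 5.70 and 8.85 FPKM at 0 h, 2.28, 1.19 and 0.564 FPKM at 12 h, and 10.6, 10.1 and 9.56 FPKM at 24 h. The 12 h libraries were below every other library of their variety, although J0 replicate 2, at 3.73 FPKM, was close to J12. These 12 h values rest on 27, 24 and 20 fragments in J12 and 20, 10 and 5 in B12. The gene fell in both varieties, by log2 fold changes of -1.51 in J12 vs J0 and -1.80 in B12 vs B0 (limma adjusted p 0.00415 and 0.000861), and was the 1 member lower at 12 h in each variety, where 7.67% and 9.81% of all genes were called lower. After scaling the log2 fold changes were -1.93 and -2.24. The call in JK3 was lost without J0 replicate 1 (-0.99) and in a fit of these groups alone (limma adjusted p 0.0573). From 12 to 24 h it rose again, 6.46-fold in J24 over J12 and 7.50-fold in B24 over B12 (log2 fold change 2.30 and 2.31, limma adjusted p 0.000163 and 0.000154). In J24 vs J0 the log2 fold change was 0.79 and was called without J0 replicate 1 (1.31), and in B24 vs B0 it was 0.50.

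The lt101.2 gene Seita.3G045600 was near the limit of detection. It had 0 fragments in each library of J0 and B0. In JK3 it had 4, 0 and 1 fragments at 12 h and 1, 8 and 16 at 24 h, and in B175 9, 3 and 21 fragments at 12 h and 25, 1 and 30 at 24 h. In J12, 4 of the 5 fragments came from replicate 1 and the group overlapped J0, so no fold is given for it. Set against a floor of 3 fragments over the 0 h group, the pooled level in J24 was 8.39-fold the floor of J0, and 4.62-fold without J24 replicate 3. In B24 it was 19.1-fold the floor of B0, and 13.6-fold without B24 replicate 3. In B12 it was 11.1-fold that floor, and 6.13-fold without B12 replicate 3. The floor allows for counting error at 0 h only. Counting error and spread in the stressed libraries are not covered, and J24 replicate 1 and B24 replicate 2 had 1 fragment each, so these folds are a description. The fitted test of this gene against 0 h is not given as support because the stressed libraries alone brought it into the test. It has the description and the coding length of Seita.9G443500 and had 0 to 30 fragments in a library where that gene had 4401 to 82090, and whether reads were shared between them was not tested.

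Among the members, log2(FPKM + 1) over the 18 libraries was most alike for the chromosome 5 pair (Pearson r 0.920) and for Seita.2G305300 and Seita.2G404700 (r 0.848). Seita.9G443500 ran with its low-level counterpart Seita.3G045600 (r 0.802) and with Seita.2G305300 (r 0.730), and not with Seita.5G033400 (r -0.01). Seita.4G194900 was opposite to Seita.5G033400 (r -0.86) and Seita.5G033500 (r -0.81). The 18 points fall into 6 groups and share the shift of all genes at 12 h, so these correlations describe the time courses only. Of all genes outside the family, the 5 most like Seita.9G443500 by this measure were Seita.6G132600 (r 0.969) and Seita.6G114000 (r 0.960), which have no description, Seita.7G099100 (r 0.960), described as a PI-PLC X domain protein, Seita.5G069800 (r 0.959), an IscA-like iron-sulfur assembly protein, and Seita.2G164500 (r 0.958), described as plastid-lipid-associated protein PAP2. PAP2 averaged 228 FPKM in J0, 306 FPKM in J12 and 462 FPKM in J24, and 164 FPKM in B0, 323 FPKM in B12 and 556 FPKM in B24.

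Other genes named for low temperature or dehydration, 17 by description, included dehydrins (hydrophilic proteins that accumulate in drying tissue), cold-regulated proteins and cold-responsive kinases. In J12 vs J0, 4 of the 17 were called higher and 0 lower, and in B12 vs B0, 9 higher and 1 lower, with median log2 fold changes of 0.73 and 1.48 (after scaling 3 higher in J12 and 8 in B12, with medians of 0.16 and 0.85). In J24 vs J0, 6 were called higher and 0 lower, and in B24 vs B0, 6 higher and 1 lower. Without scaling, the shares of all genes called higher were 24% in J12, 28.0% in B12, 5.36% in J24 and 10.2% in B24. After scaling, 3019 of the 23824 genes were called higher in J12 vs J0 and 3639 in B12 vs B0. For all genes the median log2 fold change was 0.37 in J12 and 0.43 in B12, and 0.01 in both after scaling. The COR27 genes Seita.9G250300 and Seita.9G515800, whose relatives in Arabidopsis are cold-induced and under the clock, rose by 7.30 and 7.51 in J12 vs J0 and by 7.94 and 7.60 in B12 vs B0 on the log2 scale. COR413IM1 (Seita.3G144000), a chloroplast inner membrane protein, rose by 2.11 in J12 vs J0 and by 2.03 in B12 vs B0. The dehydrin Seita.8G115400 averaged 1133 ± 173 FPKM in J12 against 807 ± 76.4 FPKM in J0, and 1516 ± 530 FPKM in B12 against 12.8 ± 9.99 FPKM in B0, with log2 fold changes of 0.48, not called, and 6.93, called. Of the 17 genes, 8 were described as CRPK1, a kinase that is a brake on cold signalling in Arabidopsis. Without scaling, all 8 changed upward at 12 h in JK3, by 0.11 to 1.27 on the log2 scale. In B175 all but Seita.1G077100 did so, and few of these changes were called. Seita.1G077100 fell by 1.71 in B12, called, and changed by 0.59 in J12, not called. Seita.3G014200 rose by 1.48 in B12, called, and by 0.81 in J12, under the limit. Seita.1G248700 rose by 1.27 in J12, called, and by 0.75 in B12, under the limit. The other 5 were not called at 12 h in either variety. COR413PM1 (Seita.9G077400), a plasma membrane protein, had log2 fold changes of 1.03 in J24 vs J0 and 2.12 in B24 vs B0, both called, and was singled out after its values were seen.

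Genes that set the membrane potential or move sodium and potassium were 31 by description, of which 25 could be tested. In J12 vs J0, 2 were called higher and 6 lower, and in B12 vs B0, 5 higher and 4 lower (1 higher and 7 lower, and 2 higher and 7 lower, after scaling). Over all genes without scaling, 24% were called higher and 7.67% lower in J12 vs J0, and 28.0% higher and 9.81% lower in B12 vs B0. After scaling, 3019 of the 23824 genes were called higher and 2946 lower in J12 vs J0. In B12 vs B0, 3639 were called higher and 3809 lower after scaling. The proton pump gene LHA1 Seita.9G134900 rose in both, by 2.63 in JK3 and 4.27 in B175 on the log2 scale, and so did LHA1 Seita.3G406700, by 1.10 and 1.43. Another plasma membrane ATPase, PMA1 (Seita.2G068600), is named because it went the other way. Its log2 fold change was -1.12 in J12 vs J0, called, and -0.69 in B12 vs B0, not called. NHX4 (Seita.4G138500), a sodium/hydrogen exchanger, rose by 2.38 in B12 vs B0 and had a log2 fold change of 0.41 in J12 vs J0, not called (limma adjusted p 0.292). The potassium channel KAT1 (Seita.1G020100), known from guard cells of Arabidopsis, fell in both, with log2 fold changes of -3.45 in J12 vs J0 and -2.89 in B12 vs B0.

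Clock genes moved at 12 h in both varieties. Of 8 clock genes, 4 were called higher in J12 vs J0 and 6 in B12 vs B0, and 0 lower (3 higher in each after scaling). Of all genes, 24% and 28.0% were called higher without scaling, and 3019 and 3639 of the 23824 genes after it. The summed level of the clock genes was 879 to 995 FPKM in J12 against 113 to 180 FPKM in J0, and 1026 to 1143 FPKM in B12 against 121 to 134 FPKM in B0. PCL1 (Seita.5G468100), an evening gene of the clock, rose by 8.02 in JK3 and 8.30 in B175, and GIGANTEA (Seita.5G129500) by 5.73 and 6.08. At 24 h their sum was 153 to 186 FPKM in J24 and 147 to 210 FPKM in B24. The members with their highest or lowest mean FPKM at 12 h (LTI6A, the chromosome 5 pair and both OSR8 genes) had it at the same time of day at which these clock genes were high. The part of the time of day in their levels was not tested. Markers of dividing cells (histone H4 and cyclin-B, 15 genes) had a summed level of 569 to 826 FPKM in J24 against 331 to 428 FPKM in J0, and 670.0 to 1463 FPKM in B24 against 370.3 to 457.0 FPKM in B0. At 12 h their sum was 626 to 753 FPKM in J12 and 765 to 950 FPKM in B12. Of the 12 tested, 3 were called higher in J24 vs J0 and 4 in B24 vs B0. Of all genes, 5.36% and 10.2% were called higher there. The part of dividing cells in the results was not tested.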

How the data were processed

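Total RNA of the leaves was made into libraries with the VAHTS Universal V6 RNA-seq kit and sequenced. The authors deposited 1 table of FPKM for 29108 genes and 18 libraries, with gene identifiers, symbols, descriptions and GO terms. The submitters' processing notes name fastp, HISAT2, HTSeq, R 3.2.0 and DESeq2 without their roles, and a genome build, mm10, that is a mouse build, while the identifiers are those of Setaria italica v2.2. The strand setting and the treatment of reads matching several genes are not given in the sources used here. The RefSeq gene table matched 0 of the 8 members, so chromosomes come from the identifiers and start and end positions were not used.

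The columns were matched to variety, time and replicate by name. Values of every gene were whole multiples of 1 fragment (tolerance 0.02 fragments) in 100.0% of genes, which gave the fragments. The test was limma 3.58.1 (R 4.3.3) on log2(FPKM + 1), with a variance trend over the mean and 6 group means, for the 23824 genes whose mean FPKM reached 0.1. Adding 1 understates the fold changes of low genes. Adjusted p values are two-sided, by Benjamini-Hochberg over all genes tested. Ratios of means are of FPKM without the added 1. Python 3.11.15 served for figures and summaries (matplotlib 3.10.9, scipy 1.17.1, pandas 2.3.3, numpy 2.4.6). The procedure was tested on simulated data.

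Every member was named. Outside the family, the 5 genes with the highest Pearson r with Seita.9G443500 were named, and of each other list up to 3 called genes per direction with the largest change in B12 vs B0 and J12 vs J0, of which some are given. The members, the lists and these rules were chosen with earlier results of these data known. The alternatives were median-ratio scaling, quantile normalization, a pseudocount of 0.1, no filter, a mean FPKM of at least 1, limma voom on the recovered fragments, a fit of only the groups compared, a block for the replicate number, and leaving out each library in turn.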

Additional observations from a re-analysis of the deposited data

How the results depend on the processing

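The number of members called stayed within 1.5 times its value in every comparison under a pseudocount of 0.1, no filter, a mean FPKM of at least 1 and limma voom on the recovered fragments. Over all genes, limma voom called 9300 in J12 vs J0 and 10852 in B12 vs B0, against 7533 and 9015 on log2(FPKM + 1). The exceptions under the other alternatives were as follows. In J24 vs J0, where 2 members were called, 1 was called after median-ratio scaling, with quantile normalization and in a fit of these groups alone. With a library left out, the number called was 1 to 3 in J24 vs J0, 2 to 3 in J24 vs J12, 3 to 6 in B24 vs B12 (6 without B24 replicate 2), 4 to 6 in J12 vs J0, 5 to 7 in B12 vs B0 and 3 to 4 in B24 vs B0, and it stayed at 1, 1 and 0 in the comparisons of varieties at 0, 12 and 24 h. The shares of all genes called with a library left out are not given here, so these numbers are a description. Of the 88 changes of single members, median-ratio scaling ended 6 calls and gave 2, and quantile normalization ended 3 and gave 5. Leaving out a library ended 18 calls and gave 15. All counts of members in this section include Seita.3G045600, whose calls against 0 h are a description. Its calls in B12 vs B0 and B24 vs B0 were among those ended by leaving out a library. The call in B12 vs B0 was also among those ended by median-ratio scaling and by quantile normalization. No called change turned its direction in any alternative. Libraries with the same replicate number did not deviate together in all pairs of any comparison (correlations from -0.178 to 0.330), and the samples were not treated as paired. With so few pairs in a comparison, these correlations cannot exclude pairing by number. With the replicate number as a block, 6 members were called in B12 vs B0 and 5 in J12 vs J0 as before, and the block changed the call of 0 members. Depth was lowest for Seita.3G045600, which rested on 119 fragments over all libraries, and for Seita.4G194900, which had 5 to 27 fragments a library at 12 h.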
